A study of Mus musculus with 8 samples.

Results

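The 32 genes described here mark the blood vessels of the brain and the membranes around it: 13 genes of endothelial cells, 9 of pericytes and the vascular basement membrane, and 10 of the meninges. They were taken by name from the 21451 genes to which the exon array's annotation gave a symbol. The samples were cortices of mouse embryos at embryonic day 18.5, 4 with a Ptbp2 knockout and 4 wild type, each hybridised to 1 Affymetrix exon array. All embryos were of a mixed CD1 and C57BL/6 background. The labels used here name neither the allele, nor the cells in which Ptbp2 was deleted, nor the litters. Ptbp2 is an RNA-binding protein of developing neurons that represses the use of many exons, and the comparison asks whether cells that surround neurons differ in RNA level or in the parts of their transcripts that are used when it is missing.

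Brain vessels consist of endothelial cells joined by tight junctions, pericytes that wrap around them, and a basement membrane of type IV collagen and laminin that both cell types secrete. Endothelial growth is controlled by vascular endothelial growth factors acting on Flt1 and Kdr and by angiopoietins acting on Tek and its partner Tie1. Pericytes are held on the vessel by platelet-derived growth factor signalling through Pdgfrb. The meninges are layers of fibroblast-like cells over the cortex that make fibrillar collagens, retinoic acid and signals for the cells below. In RNA from whole tissue, fewer cells of a type and less RNA per cell cannot be told apart, and a cortex sample holds as much meninges as the dissection leaves on it.

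None of the 29 genes that could be tested passed the test for a difference in level between knockout and wild type cortex. The level of a gene on an array is the median log2 signal of its retained probe sets, the short probe groups that mostly fall in single exons, and a gene needed at least 4 of them. Adjusted p-values from limma ran between 0.70 and 1.0 for these genes, with Benjamini-Hochberg adjustment over 12960 genes, of which 0.116% passed at 0.05. At an unadjusted p under 0.05 there were 3 of 29 genes (10.3%), all higher in knockout, against 6.49% of all genes in either direction and 2.7% higher in knockout. The knockout mean was higher for 21 genes and lower for 8, and log2 fold changes lay between -0.24 and 0.27. The 95% intervals of all 29 fall between -0.69 and 0.48, with a median half-width of 0.21.

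**Figure D1:**
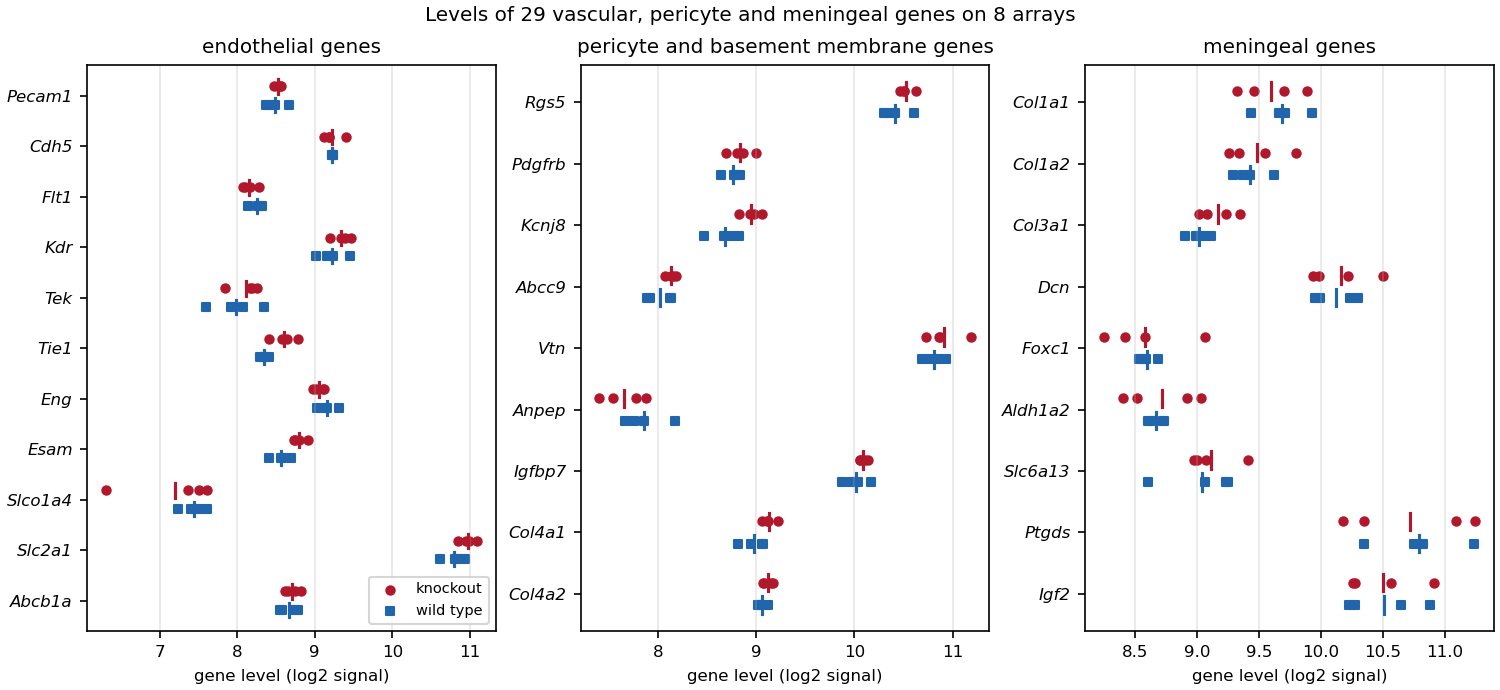
Log2 signal (horizontal axis) of the 29 tested genes on each array, in 3 panels by class, with red circles for the 4 knockout arrays, blue squares for the 4 wild type arrays and a short vertical line at each group mean. The groups overlap for every gene except Esam.

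The arrays and their labels were checked first. Ptbp2 measured 6.24, 5.80, 5.54 and 6.22 in knockout cortex, against 11.40, 11.15, 11.08 and 11.16 in wild type cortex, so the targeted gene fitted the labels in each of the 8 samples. Genes of cortical neurons were measured in both groups: Neurod6 averaged 11.56 ± 0.09 in knockout and 11.54 ± 0.17 in wild type cortex (SD, n = 4 each), and none of 10 cortical genes passed the test. Xist, which is transcribed from the inactive X chromosome of females, was low in knockout 1 and 3 and in wild type 1 and 2, so each group held 2 low and 2 high arrays. Wild type 3 and knockout 3 stood apart from the rest on the first 2 principal components, which held 28.9% and 22.6% of the variance. Knockout 2 had 9.36 for Ttr, a transport protein made by the choroid plexus, against 13.18 to 13.38 in the other 7 arrays. Wild type 1 lay nearly as far out as knockout 3 on these components. Gene levels as a whole shifted between arrays: over 12960 genes the median deviation was 0.092 on wild type 1 and -0.083 on wild type 3. Wild type 1 was the highest wild type array for 6440 genes and wild type 3 the lowest for 6199. Shifts of this size exceed the median changes of the endothelial and meningeal genes given below. Values without wild type 3 and knockout 3, or without knockout 2, are given beside some of the genes that they moved.

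Among endothelial genes, 8 of 11 tested genes had a higher mean in knockout cortex and 3 had a lower one, with a median log2 fold change of 0.046 against 0.0027 over all genes. None of them passed the test. The endothelial median was 0.0054 with a stricter probe set filter, 0.013 with cyclic loess normalization and -0.0022 with the mean over probe sets. Tie1, an orphan receptor tyrosine kinase that modulates angiopoietin signalling through Tek, measured 8.64, 8.41, 8.79 and 8.58 in knockout cortex, against 8.41, 8.29, 8.35 and 8.34 in wild type cortex. Knockout 2 fell within the wild type values and the other 3 knockout arrays lay above them. The Tie1 difference was 0.26 (95% interval 0.05 to 0.46), with an unadjusted p of 0.017 and an adjusted p of 0.70 in limma. That difference depended on which probe sets were kept: it was -0.017 when only probe sets above the 75th percentile of the table were used, and 0.070 with the mean over probe sets in place of the median.

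Esam, an adhesion molecule of endothelial tight junctions, measured 8.80, 8.74, 8.92 and 8.75 in knockout cortex, against 8.70, 8.58, 8.41 and 8.56 in wild type cortex. It was the only one of the 29 genes whose groups did not overlap, a pattern that 3.65% of all genes showed in either direction and 1.68% with knockout above. The closest values were 8.74 in knockout 2 and 8.70 in wild type 1. Its difference of 0.24 (95% interval 0.04 to 0.44) had an unadjusted p of 0.021 and an adjusted p of 0.72 in limma, and was 0.066 with the stricter probe set filter and 0.11 with the mean. Over 19 alternatives the adjusted p lay between 0.18 and 1.0 for Tie1 and between 0.23 and 1.0 for Esam.

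Slc2a1, the glucose transporter of the blood-brain barrier, measured 10.85, 10.98, 11.09 and 10.95 in knockout cortex, against 10.93, 10.81, 10.61 and 10.83 in wild type cortex. Only knockout 1 lay below the highest wild type array, and the difference was 0.17 with an interval of -0.03 to 0.38, or 0.073 without wild type 3 and knockout 3. Kdr, the main signalling receptor for vascular endothelial growth factor, measured 9.19, 9.46, 9.33 and 9.39 in knockout cortex, against 9.46, 9.02, 9.24 and 9.16 in wild type cortex. The groups overlapped, with wild type 1 just below knockout 2, the highest array, and knockout 1 below wild type 3. The difference was 0.12 (95% interval -0.10 to 0.35) and was -0.037 with the stricter filter and -0.051 with the mean.

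The other endothelial receptors and surface proteins showed differences of similar size in both directions. Flt1, which binds some of the growth factors that Kdr binds and can limit their supply, had a difference of -0.10 (95% interval -0.29 to 0.09). Eng, a co-receptor for ligands of the transforming growth factor family, had -0.11 (-0.30 to 0.09), and Tek, the angiopoietin receptor, had 0.13 (-0.17 to 0.43). The adhesion molecules Pecam1 and Cdh5 had 0.046 and 0.00. Cdh5, the cadherin of endothelial adherens junctions, spread differently in the groups: it measured 9.18, 9.12, 9.41 and 9.19 in knockout cortex, against 9.22, 9.23, 9.23 and 9.22 in wild type cortex. The wild type arrays were nearly identical and knockout 3 was above all of them.

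Of the efflux and uptake transporters, Abcb1a, the drug efflux pump P-glycoprotein of the barrier, had a difference of 0.046 (95% interval -0.15 to 0.24). Abcb1a has a close paralog, Abcb1b, so signal from sequence common to both cannot be assigned to either. Slco1a4, an organic anion transporter, measured 7.37, 6.31, 7.61 and 7.51 in knockout cortex, against 7.24, 7.52, 7.61 and 7.41 in wild type cortex. Knockout 2 lay far below the other 7 arrays and under the filter value of 6.84. The difference for Slco1a4 was -0.24 (95% interval -0.69 to 0.20) with that array and 0.053 without it. This gene also belongs to a cluster of similar transporters.

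The remaining endothelial genes, Cldn5 and Ly6c1, had only 2 retained probe sets each and were not tested as genes. For Cldn5, the main claudin of the blood-brain barrier, the brighter probe set measured 10.21, 10.04, 10.08 and 10.09 in knockout cortex, against 10.16, 10.23, 9.71 and 10.002 in wild type cortex. The groups overlapped, and the difference was 0.078 (adjusted p = 0.92 in limma over probe sets). For Ly6c1, a surface protein of brain endothelium, the brighter probe set measured 8.56, 8.51, 8.94 and 8.73 in knockout cortex, against 8.80, 8.79, 9.03 and 8.99 in wild type cortex, with overlap and an adjusted p of 0.75. Ly6c1 has a near-identical neighbour, Ly6c2, and its signal is uncertain for that reason.

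**Figure D2:**
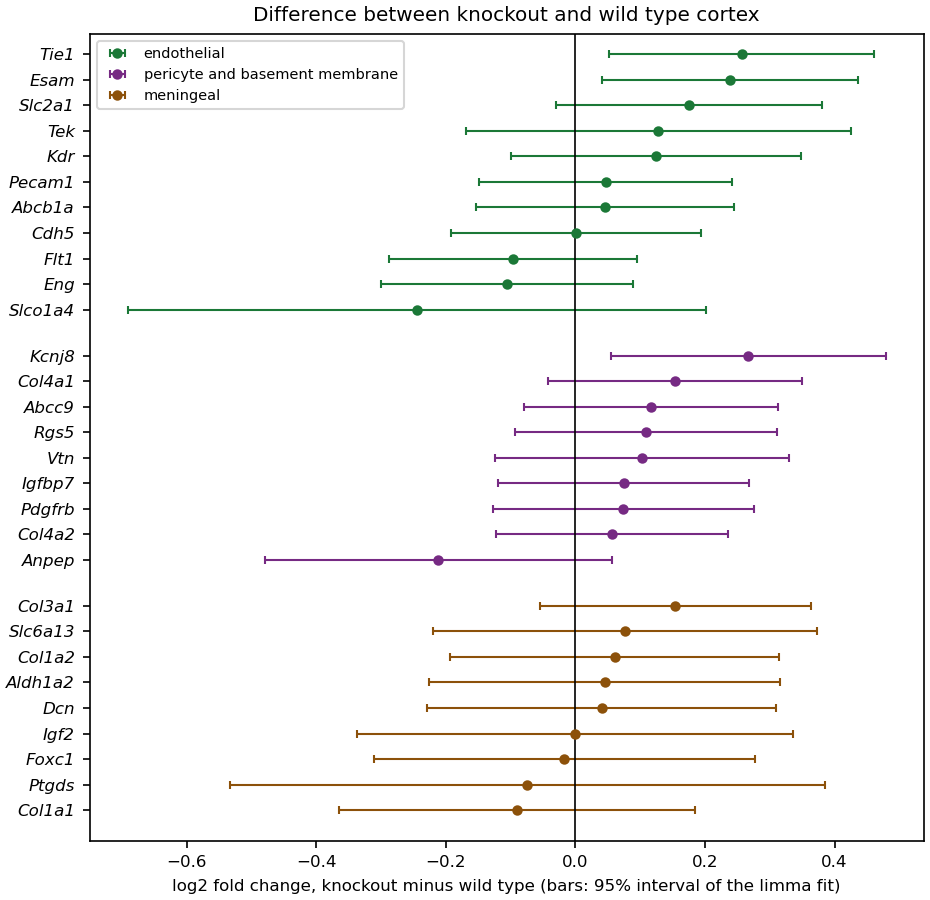
Log2 fold change of knockout minus wild type (horizontal axis) for the 29 tested genes, ordered by size within the endothelial, the pericyte and basement membrane, and the meningeal class. Bars are 95% intervals of the limma fit, and those of Tie1, Esam and Kcnj8 alone stay above 0 without adjustment for the number of genes.

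The pericyte and basement membrane genes leaned the same way more often: the knockout mean was higher for 8 of 9 and lower for Anpep, with a median log2 fold change of 0.10. Of all genes, 49% had a lower knockout mean. None of the 9 passed the test. Kcnj8, the pore of the potassium channel by which pericytes sense energy state, measured 8.83, 8.93, 8.97 and 9.06 in knockout cortex, against 8.83, 8.67, 8.47 and 8.76 in wild type cortex. Wild type 1 and knockout 1 nearly coincided and the other knockout arrays lay above every wild type array. The difference was 0.27 (95% interval 0.05 to 0.48), with an unadjusted p of 0.017 and an adjusted p of 0.70 in limma. It rested on 4 retained probe sets, and its adjusted p over 18 alternatives was 0.30 to 1.0.

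Abcc9, the regulatory subunit of the same channel, measured 8.16, 8.07, 8.19 and 8.13 in knockout cortex, against 8.12, 7.92, 8.13 and 7.89 in wild type cortex. Knockout 1 and 3 lay above the highest wild type array and knockout 2 and 4 below it, and the difference was 0.12 (95% interval -0.08 to 0.31). Kcnj8 and Abcc9 are neighbours on chromosome 6 in the RefSeq gene order. Dcn and Lum likewise adjoin on chromosome 10, and Col4a1 and Col4a2 on chromosome 8.

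Anpep, an aminopeptidase on the pericyte surface, measured 7.78, 7.55, 7.88 and 7.41 in knockout cortex, against 7.76, 7.86, 8.17 and 7.67 in wild type cortex. The groups overlapped, the difference was -0.21 (95% interval -0.48 to 0.06), and it was 0.0098 when dim probe sets were kept as well. Rgs5, a regulator of G protein signalling that marks pericytes, measured 10.50, 10.46, 10.62 and 10.50 in knockout cortex, against 10.61, 10.33, 10.41 and 10.30 in wild type cortex. Wild type 1 was above 3 of the knockout arrays and the other wild type arrays were below all of them, and the difference was 0.11 (-0.09 to 0.31). Vtn, the adhesion protein vitronectin, measured 10.87, 10.86, 11.18 and 10.72 in knockout cortex, against 10.76, 10.93, 10.68 and 10.85 in wild type cortex. Knockout 3 was the highest of all 8 arrays, and the Vtn difference of 0.10 was -0.029 without knockout 3 and wild type 3.

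Col4a1, a chain of the type IV collagen of basement membranes, measured 9.11, 9.12, 9.23 and 9.06 in knockout cortex, against 8.95, 8.82, 9.06 and 9.07 in wild type cortex. Knockout 4 fell among the upper wild type values, and the difference was 0.15 (95% interval -0.04 to 0.35), or -0.075 with the stricter filter. For Col4a2, the partner chain, the difference was 0.057 (-0.12 to 0.24). Pdgfrb, the receptor that recruits pericytes, had 0.074 (-0.13 to 0.28), and Igfbp7, a secreted binding protein of vessel walls, had 0.075 (-0.12 to 0.27). The summed signal of the 9 genes on a linear scale was 6764 to 7676 on knockout arrays and 6366 to 6758 on wild type arrays, with knockout 3 highest. Knockout 4 (6764) and wild type 1 (6758) nearly coincided. Such a sum weighs bright genes such as Vtn and Rgs5 most, and the groups overlapped for both. As medians of the deviations of the 9 genes, the arrays overlapped, with -0.0055 in knockout 2 and 0.015 in wild type 1.

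RefSeq promoter windows, 250 bases before to 50 after a start site on GRCm38.p6, matched 25 of the 32 genes, with 31 windows in all. Pecam1, Cdh5, Esam, Pdgfrb, Col1a1, Dcn and Lum had none in the table. Windows of Tie1 and Kcnj8 are shown because these genes had the smallest p-values of their classes, with the core GGAA (TTCC on the other strand) in capitals, the letters at the centre of the sites bound by ETS factors such as Erg and Fli1. Col4a2 is shown because its start site lies 21 bases from that of Col4a1 on the opposite strand (Col4a1 window chr8:11312777-11313076, minus strand), and capitals mark the 78 bases that both windows cover.
Tie1 (chr4:118489800-118490099, minus strand): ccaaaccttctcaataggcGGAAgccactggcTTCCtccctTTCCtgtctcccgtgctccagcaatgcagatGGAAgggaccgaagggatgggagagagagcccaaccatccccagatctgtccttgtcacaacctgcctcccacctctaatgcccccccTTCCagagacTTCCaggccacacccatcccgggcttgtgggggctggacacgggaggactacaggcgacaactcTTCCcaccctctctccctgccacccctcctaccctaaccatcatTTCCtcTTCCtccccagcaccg
Kcnj8 (chr6:142571565-142571864, minus strand): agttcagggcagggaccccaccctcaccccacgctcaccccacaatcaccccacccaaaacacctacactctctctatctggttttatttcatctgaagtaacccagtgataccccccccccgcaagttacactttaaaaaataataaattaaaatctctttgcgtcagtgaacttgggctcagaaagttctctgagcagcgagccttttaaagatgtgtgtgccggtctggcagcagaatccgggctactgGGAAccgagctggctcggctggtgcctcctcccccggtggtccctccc
Col4a2 (chr8:11312555-11312854, plus strand): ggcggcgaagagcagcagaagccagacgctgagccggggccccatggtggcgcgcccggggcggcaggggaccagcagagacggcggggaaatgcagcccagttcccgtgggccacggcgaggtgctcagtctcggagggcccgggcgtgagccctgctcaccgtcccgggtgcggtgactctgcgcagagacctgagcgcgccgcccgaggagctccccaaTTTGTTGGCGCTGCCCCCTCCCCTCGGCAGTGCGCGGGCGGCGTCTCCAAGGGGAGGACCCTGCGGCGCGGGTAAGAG
The Tie1 window held 9 matches of the core and that of Kcnj8 held 1. This motif is common: it was found on either strand in 28 of the 31 windows (90.3%), in 9 of 11 endothelial windows (81.8%), and in 96.0% of 32851 RefSeq promoter windows. GGGCGG, the core of sites for Sp factors, was on either strand in 45.2% of the genes' windows and 35.7% of all. The motif CCAAT was in 41.9% of the genes' windows and 37.4% of all, and TATAAA in 16.1% and 13.6%, with both strands searched. These matches describe letters in the windows and show no binding.

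None of the meningeal genes passed the test: the knockout mean was higher for 5 of 9 and lower for 4, and the median log2 fold change was 0.040. That median was below 0 in 7 of 19 alternatives, among them array weights (-0.040), the stricter filter (-0.0052) and leaving out wild type 3 and knockout 3 (-0.11). None of the 9 had an unadjusted p under 0.05. Col3a1, a fibrillar collagen of connective tissue, measured 9.24, 9.01, 9.34 and 9.08 in knockout cortex, against 8.90, 9.11, 9.05 and 8.99 in wild type cortex. Knockout 1 and 3 were above the wild type arrays and knockout 2 and 4 were among them, with a difference of 0.15 (95% interval -0.05 to 0.36). Col1a1, a chain of type I collagen, measured 9.70, 9.32, 9.89 and 9.46 in knockout cortex, against 9.44, 9.66, 9.93 and 9.71 in wild type cortex. Its groups overlapped, with a difference of -0.090 (-0.37 to 0.19). Col1a2, the other chain, measured 9.55, 9.26, 9.80 and 9.34 in knockout cortex, against 9.42, 9.29, 9.62 and 9.37 in wild type cortex, and differed by 0.061 (-0.19 to 0.31).

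Slc6a13, a transporter of GABA in the meninges, measured 9.07, 8.995, 9.41 and 8.98 in knockout cortex, against 9.06, 9.23, 8.60 and 9.25 in wild type cortex. The lowest array was wild type 3 and the highest knockout 3, and the difference of 0.077 was -0.17 without both. Ptgds, the prostaglandin D synthase secreted by the meninges and choroid plexus, measured 11.09, 10.18, 11.25 and 10.35 in knockout cortex, against 10.75, 11.24, 10.35 and 10.83 in wild type cortex. The knockout arrays split into a high pair and a low pair, and the mean difference was -0.074 (95% interval -0.53 to 0.39). It was -0.40 without wild type 3 and knockout 3 and 0.10 without knockout 2. Igf2, an insulin-like growth factor made by the meninges and the choroid plexus, measured 10.57, 10.26, 10.91 and 10.28 in knockout cortex, against 10.23, 10.88, 10.65 and 10.28 in wild type cortex. Both groups averaged 10.51 ± 0.31 (SD, n = 4 each), and the difference was -0.090 without wild type 3 and knockout 3 and 0.081 without knockout 2.

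The transcription factor Foxc1, which meningeal development needs, and Aldh1a2, which makes retinoic acid there, are named here after their values were seen. Foxc1 measured 8.57, 8.24, 9.07 and 8.41 in knockout cortex, against 8.53, 8.68, 8.59 and 8.57 in wild type cortex. Aldh1a2 measured 8.92, 8.40, 9.03 and 8.51 in knockout cortex, against 8.60, 8.72, 8.73 and 8.62 in wild type cortex. In both genes the knockout values lay on both sides of a narrow wild type range. The Foxc1 difference was -0.017, or -0.18 without wild type 3 and knockout 3 and 0.093 without knockout 2. Their SD was 5.4 and 4.5 times as large in knockout as in wild type cortex. A ratio above 3 was found in 3.77% of all genes. It was found in 2 of 9 meningeal, 3 of 11 endothelial and 0 of 9 pericyte and basement membrane genes. Of 30 further meningeal and fibroblast genes 5 had such a ratio, and of 12 choroid plexus genes 6 had one. A wide knockout spread was thus not particular to meningeal genes. The proteoglycan gene Dcn differed by 0.040 (-0.23 to 0.31). Lum, a related proteoglycan, had 2 retained probe sets, of which the brighter measured 8.70, 8.09, 8.91 and 8.48 in knockout cortex, against 8.29, 8.36, 7.97 and 8.32 in wild type cortex, with overlap and an adjusted p of 0.74.

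The meningeal genes moved together from array to array within the knockout group, a pattern noticed in these values and not a comparison of the groups. In all 9, knockout 3 was the highest knockout array and knockout 2 or knockout 4 the lowest, an order that 21.0% of all genes had. The same order held for 6 of 9 pericyte and basement membrane genes, 5 of 11 endothelial genes and 22 of 30 further meningeal and fibroblast genes. It was not particular to meningeal genes: knockout 3 was highest for 18 of 22 further basement membrane and matrix genes and knockout 2 lowest for 14. Medians of 10 cortical genes and of 10 microglia and macrophage genes were also higher in knockout 1 and 3 than in 2 and 4. Of 9 neuronal genes, 6 were lowest in knockout 3. Genes expressed in the same cells are not independent, so these counts stand for few observations. As medians over the 9 genes, deviations from each gene's mean over the 8 arrays were 0.080, -0.25, 0.35 and -0.18 in knockout 1 to 4, against -0.093, 0.10, 0.0019 and -0.017 in wild type 1 to 4. The SD was larger in knockout than in wild type for 7 of 9 genes, against 37.8% of all genes. It was larger for 4 of 11 endothelial and 3 of 9 pericyte and basement membrane genes. So it was for 26 of 30 further meningeal and fibroblast, 11 of 12 choroid plexus and 6 of 8 skin, bone and muscle genes. No test of the spread was run.

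**Figure D3:**
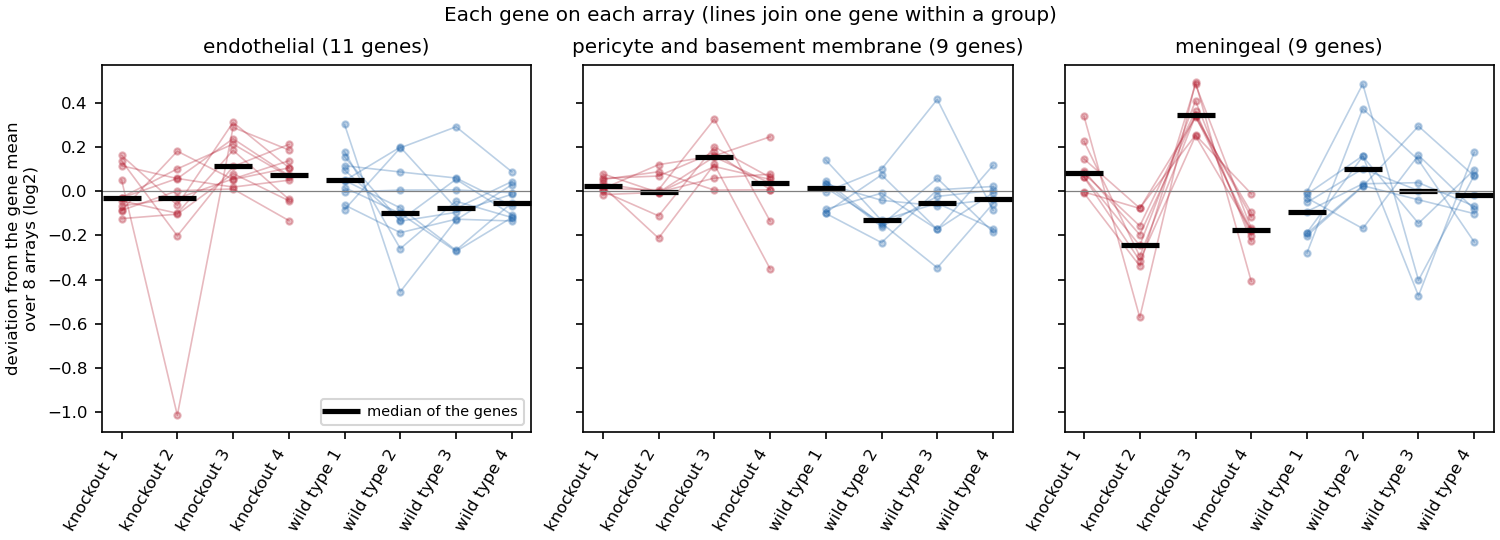
Deviation of each tested gene from its own mean over the 8 arrays (vertical axis, log2) on each array, in 3 panels by class, with red lines joining 1 gene over the knockout arrays, blue lines over the wild type arrays and black bars at the median of the genes. In the meningeal panel the median is 0.35 on knockout 3 and -0.25 on knockout 2.

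Other measurements moved with this order only in part. All 9 meningeal genes were higher on both low-Xist knockout arrays than on both high-Xist ones, as 25.3% of all genes were, while none of the 9 was in wild type, where 18.02% of all genes were. For the 12 tested choroid plexus genes of 14 listed, the median deviation was -0.15, -0.75, 0.33 and 0.15 in knockout 1 to 4, against 0.077, 0.22, 0.0048 and 0.16 in wild type 1 to 4, so knockout 4 was low for meningeal genes but not for these. Their summed linear signal was 2669 to 14128 on knockout arrays and 13467 to 14059 on wild type arrays. None of 12 choroid plexus genes passed the test, and 11 had a lower mean in knockout. Log2 array signals have no true 0, but Clic6, a chloride channel protein of the choroid plexus, was at 6.14 in knockout 2, under the filter value of 6.84. The part of Xist-linked differences between embryos, of choroid plexus and of the amount of meninges in the sample in this order was not tested. With the Xist level as a covariate, an alternative added after seeing the data, the meningeal median was 0.034 and none of the 29 genes passed.

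The further genes of these cell types gave the same count of calls: 0 of 149 tested genes in 7 lists passed the test in limma, against 0.116% of all genes. At an unadjusted p under 0.05 there were 8 (5.37%), against 6.49% of all genes. The knockout mean was lower for 82 (55.0%), against 49% of all genes. The groups did not overlap for 4 of the 149, 3 higher and 1 lower in knockout, a pattern that 3.65% of all genes showed. Among 18 angiogenic ligands, Vegfd measured 7.43, 7.20, 7.54 and 7.21 in knockout cortex, against 7.69, 7.68, 7.78 and 7.37 in wild type cortex. The groups overlapped only through wild type 4, and the Vegfd difference was -0.29 (adjusted p = 0.72 in limma). Vegfb had -0.22 (adjusted p = 0.76) and Apln, a peptide of sprouting vessels, had -0.28 (0.77). All 3 were lower in knockout, but of the 18 ligands 8 were higher and 10 lower, with a median of -0.026. The only 1 whose groups did not overlap was higher in knockout. Of 25 endothelial receptor and signalling genes, Smad6, an inhibitor of bone morphogenetic protein signalling, measured 7.65, 7.57, 7.98 and 8.11 in knockout cortex, against 8.18, 8.13, 8.00 and 8.31 in wild type cortex. Knockout 1, 2 and 3 were below every wild type array, and the difference was -0.33 (adjusted p = 0.69). The next in the list by p were Plxnd1, a semaphorin receptor, with -0.16, and Acvrl1, a receptor kinase that works with Eng, with 0.12. Of the 25 genes, 15 had a higher knockout mean and 10 a lower one.

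Among 18 endothelial transcription factors, none had an unadjusted p under 0.05. The smallest p-values were those of Sox7 (-0.20), Foxo1 (-0.16) and Nr2f2, which sets venous identity (-0.13). These 3 were lower in knockout, while of the 18 genes 12 were higher and 6 lower. Of 21 further junction and transporter genes, Lsr, a protein of tricellular tight junctions, measured 8.56, 8.57, 8.67 and 8.64 in knockout cortex, against 8.43, 8.37, 8.25 and 8.34 in wild type cortex. The groups did not overlap, and the difference was 0.26 (95% interval 0.08 to 0.45, adjusted p = 0.56 in limma). Bsg, a chaperone of lactate transporters, had -0.23 and the efflux pump Abcg2 had 0.20, both with overlap. Among 22 basement membrane and matrix genes, the protease Mmp9 had 0.25 (adjusted p = 0.77), Col15a1 had 0.13 and Mmp2 had 0.13. Of these 22, 13 had a higher knockout mean and 9 a lower one.

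The 15 tested mural genes, which include smooth muscle genes, had a lower knockout mean in 13 and a median log2 fold change of -0.084, while 8 of the 9 pericyte and basement membrane genes had a higher one. None of the 15 passed. Ebf1, a transcription factor of pericytes that striatal neurons express too, measured 8.48, 8.20, 8.14 and 8.64 in knockout cortex, against 9.03, 8.49, 8.81 and 8.92 in wild type cortex. Only wild type 2 fell within the knockout range, and the difference was -0.45 (95% interval -0.73 to -0.17, adjusted p = 0.42 in limma), or -0.56 with an adjusted p of 0.031 under the stricter filter. Over 19 alternatives the adjusted p of Ebf1 was 0.031 to 0.88. Myh11, the smooth muscle myosin, had -0.22 (adjusted p = 0.75), and Cnn1, a protein of the contractile apparatus, had -0.29 (0.79) with 7.33, 8.22, 7.67 and 7.99 in knockout cortex, against 8.10, 8.12, 8.06 and 8.08 in wild type cortex. Acta2, the smooth muscle actin, had -0.31 (0.79). The pericyte genes Cspg4, Notch3 and Mcam had -0.084, -0.040 and -0.010. All mural genes named here were lower in knockout, while 2 of the 15 were higher, by at most 0.17. Only 1 of the 15 had groups that did not overlap, and it was higher in knockout, as were 1.68% of all genes.

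Among 30 further meningeal and fibroblast genes, 24 had a lower knockout mean, with a median of -0.040. Fbln2, a matrix glycoprotein, measured 8.05, 7.92, 8.26 and 8.05 in knockout cortex, against 8.39, 8.41, 8.30 and 8.53 in wild type cortex. The groups did not overlap, and the difference was -0.33 (95% interval -0.54 to -0.13, adjusted p = 0.42 in limma). The call depended on the setting: it was -0.42 with an adjusted p of 0.012 when probe sets were averaged and -0.42 with 0.028 under array weights. Those were the 2 calls among 19 alternatives, where the adjusted p of Fbln2 was 0.012 to 0.85. Gjb6, a connexin, had -0.24 and Slc13a4, a sulphate transporter, had -0.26, neither past the test.

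**Figure D4:**
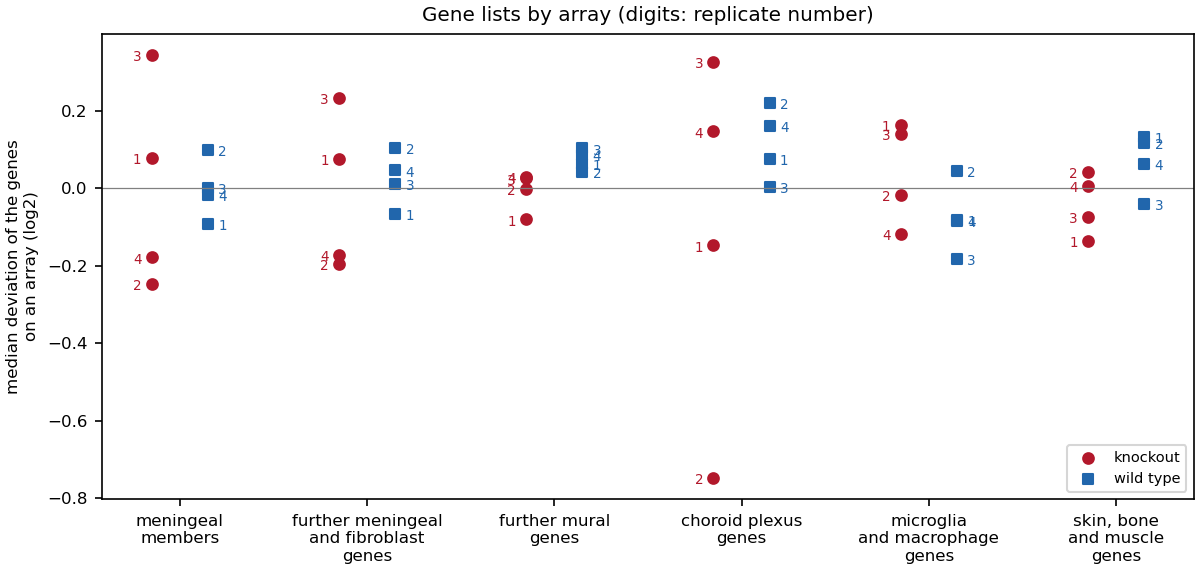
Median deviation of the genes of 6 lists on each array (vertical axis, log2), with red circles for knockout, blue squares for wild type and digits for the replicate number. For the meningeal genes and the further meningeal and fibroblast genes, knockout 3 and 1 lie above knockout 4 and 2, and for the choroid plexus genes knockout 2 lies lowest at -0.75.

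Marker genes of other cells that a cortex sample can hold gave few calls. Of 10 tested microglia and macrophage genes, 8 had a higher knockout mean (median 0.17) and none passed. The lysosomal gene Cd68 measured 7.95, 7.77, 7.63 and 7.84 in knockout cortex, against 7.40, 7.66, 7.42 and 7.33 in wild type cortex, a difference of 0.35 with an adjusted p of 0.42. The list's summed linear signal was 2844 to 3394 on knockout arrays and 2549 to 2957 on wild type arrays. Of 8 skin, bone and muscle genes, 6 had a lower knockout mean, and Krt5, a keratin of skin, had -0.46 with no overlap (adjusted p = 0.23). Only 3 of 15 red blood cell genes could be tested, so blood left in the vessels was hardly measured. Of 9 neuronal genes, Snap25, a protein of synaptic vesicle fusion, fell by 0.84 in knockout cortex (adjusted p = 0.0048 in limma).

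Single probe sets were tested for level as well. Of the 830 probe sets of the 32 genes, 718 (86.5%) were at or above the filter, and 0 of them passed the level test in limma over 312767 probe sets, of which 0.0921% passed. At an unadjusted p under 0.05 there were 14 (1.95%), against 7.44% of all probe sets. The knockout and wild type values did not overlap in 6 (0.836%), against 4.24% of all.

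Usage, the change of a probe set relative to the other probe sets of its gene, was called for 1 of 712 probe sets by diffSplice of limma, and 0.216% of 195622 probe sets were called in all, 0.127% as lower in knockout. That probe set, 5167291 of Rgs5, measured 7.001, 6.90, 6.21 and 7.44 in knockout cortex, against 8.16, 7.08, 7.27 and 7.39 in wild type cortex. The groups overlapped, with wild type 1 high and knockout 3 low. Knockout 3 lay under the filter value of 6.84 and knockout 2 just above it. The level of the whole gene averaged 10.52 in knockout and 10.41 in wild type cortex. This dim probe set had group means of 6.89 and 7.47, under the 75th percentile of 8.55, so the stricter filter dropped it. Its usage fell by 0.66 on the log2 scale (adjusted p = 0.042). Without knockout 3 the value was -0.41 (adjusted p = 1.0), without wild type 1 it was -0.48 (0.45), and the splicing index, which fits the difference from the gene median, gave a similar value of -0.70 with an adjusted p of 0.92 and called 0.0107% of all probe sets. Leaving out any 1 of 6 arrays ended the call. In the other 4 of these the value was -0.69 (without knockout 1), -0.70 (knockout 2), -0.70 (wild type 3) and -0.70 (wild type 4), as large as with all arrays. The call held in 8 of 16 alternatives (adjusted p = 0.0034 to 1.0 in limma).

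The next by p were probe set 4403019 of Tie1 and probe set 5380309 of Kdr. The Tie1 probe set measured 8.60, 8.16, 8.92 and 8.49 in knockout cortex, against 8.06, 7.68, 8.48 and 7.62 in wild type cortex, with overlap through wild type 3 and a usage difference of 0.53 (adjusted p = 0.11). The Kdr probe set measured 8.13, 8.12, 7.60 and 8.69 in knockout cortex, against 9.28, 8.32, 8.75 and 8.61 in wild type cortex, with overlap through knockout 4 and a usage difference of -0.57 (adjusted p = 0.12). Of 16 alternatives, 4 called the Tie1 probe set and 1 the Kdr probe set. In the 7 further lists, 3 of 2543 probe sets were called, against 0.216% of all: 5141124 of Col15a1, a vessel wall collagen, with -0.87 (adjusted p = 0.0071), 5081625 of Foxo1 with 0.63 (0.026) and 4340007 of Nrp1, a co-receptor for vascular endothelial growth factor, with -0.85 (0.013). The groups overlapped in each, and none passed the level test (adjusted p = 0.55, 0.60 and 0.73 in limma). The Nrp1 probe set measured 8.13, 9.46, 7.65 and 9.59 in knockout cortex, against 10.17, 8.79, 9.56 and 9.40 in wild type cortex. For Col15a1 and Nrp1, knockout 3 was the lowest array (7.20 and 7.65) and wild type 1 the highest (9.18 and 10.17). The splicing index gave values of similar size, -0.93 for Col15a1, 0.53 for Foxo1 and -0.79 for Nrp1, each with an adjusted p of 0.92. The exons these probe sets fall in were not analysed here.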

How the data were processed

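The authors deposited log2 signals per probe set. Per the submitters' processing notes, Affymetrix Expression Console, RMA and mm9 were used, with no versions given. RMA evens out the distributions of the arrays and compresses low signals. Labels report Trizol extraction of total RNA. Arrays give no count depth, so their number (4 against 4) limits the precision. For levels and the splicing index, p-values measure the spread between samples that the design text calls biological replicates. In diffSplice the residual spread is pooled over the probe sets of a gene as if they were independent, so its p-values can be smaller. For the Nrp1 probe set the unadjusted p was 1.6e-05 in diffSplice and 0.11 in the limma fit of the splicing index.

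Of 625534 probe sets, 303629 had exactly 1 gene symbol, 5892 had several and 316013 none; 3919 symbols were updated through RefSeq GRCm38.p6 synonyms. Probe sets with a mean of at least 6.84, the median of the table, were kept (312767). Genes were summarised as medians of 4 or more of these and fitted with limma 3.58.1 (lmFit, eBayes) in R 4.3.3, without covariates. Usage was tested with diffSplice, and the splicing index was an alternative. The steps were tested on simulated data. Fold changes are knockout minus wild type on the log2 scale.

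The genes and lists were chosen with earlier results of these data known. All 32 genes are accounted for. Values on every array are given for the 4 tested genes of each class with the smallest unadjusted p and the 2 with the highest mean, and beyond this for a few genes whose values a result turns on; those were chosen after their values were seen. From each further list, the 3 genes with the smallest p were named, besides Acta2, Cspg4, Notch3 and Mcam, mural markers chosen outside this rule after values were seen, and of probe sets those called and the 3 with the smallest p. Alternatives were other filters, normalizations, summaries, weights, a replicate block and left-out arrays.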

Additional observations from a re-analysis of the deposited data

How the results depend on the processing

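No gene of the 3 classes and none of their probe sets passed the level test under any alternative run. In 548 refits of the 29 genes, 494 kept the direction of the log2 fold change and 54 turned it, none with a call (lowest adjusted p = 0.18 in limma), and 10 genes never turned. Leaving out single arrays gave class medians of 0.0088 to 0.11 (endothelial) and 0.076 to 0.12 (pericyte and basement membrane). The meningeal median was then -0.073 to 0.11, lowest without knockout 3. Without wild type 3 and knockout 3 the 3 medians were 0.061, 0.040 and -0.11. Medians of single arrays had pooled SDs of 0.069, 0.066 and 0.20 in the 3 classes. These SDs do not measure the spread of a difference between group means. The endothelial median was -0.0022 with the mean over probe sets, and the meningeal one -0.040 with array weights and -0.0052 with the 75th percentile filter. The number of the genes' probe sets called in usage was 1 and became 3 with the replicate block, 3 without a filter, 0 with the 75th percentile filter, 6 with array weights, 0 without wild type 3 and knockout 3, 0 with the splicing index and 0 to 3 with single arrays left out. Correlations of deviations between same-numbered arrays were 0.25, -0.0039, 0.033 and 0.17, and whether these arrays are pairs was not tested. The block altered no call of a gene's level in the 3 classes, while calls over all genes went from 15 to 22. The number of further genes called was 0 and became 1 with the 75th percentile filter (Ebf1), with array weights and with the mean over probe sets (both Fbln2). The cause of these moves was not tested.

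Directions turned as follows, in log2. No filter: Pecam1 -0.037, Anpep 0.0098, Aldh1a2 -0.018, Igf2 0.048. The 75th percentile filter: Pecam1 -0.0040, Flt1 0.0085, Kdr -0.037, Tie1 -0.017, Col4a1 -0.075, Col4a2 -0.0094, Aldh1a2 -0.14; Kcnj8, Slco1a4 and Anpep could not be tested there. Mean over probe sets: Pecam1 -0.015, Cdh5 -0.0022, Kdr -0.051, Foxc1 0.031, Aldh1a2 -0.037, Igf2 0.0089. Quantile normalization: Cdh5 -0.0099, Igf2 0.0058. Cyclic loess: Cdh5 -0.015. Array weights: Cdh5 -0.011, Igfbp7 -0.020, Dcn -0.067, Slc6a13 -0.10, Igf2 0.090. Without wild type 3 and knockout 3: Cdh5 -0.058, Vtn -0.029, Dcn -0.12, Aldh1a2 -0.041, Slc6a13 -0.17. Xist covariate: Cdh5 -0.00091. With single arrays left out, the ranges that crossed 0 were -0.060 to 0.035 for Cdh5, -0.0021 to 0.25 for Tek, -0.38 to 0.053 for Slco1a4, -0.044 to 0.14 for Col1a2, -0.073 to 0.11 for Dcn, -0.18 to 0.093 for Foxc1, -0.061 to 0.15 for Aldh1a2, -0.068 to 0.15 for Slc6a13, -0.25 to 0.10 for Ptgds and -0.14 to 0.12 for Igf2.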
